A study of Mus musculus with 6 samples.

Results

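The genes described here are Nfe2l2, which encodes the transcription factor NRF2, Keap1, which encodes its inhibitor, and 8 direct NRF2 targets: Nqo1, Hmox1, Gclc, Gclm, Gsr, Txnrd1, Srxn1 and Slc7a11. They were found on the arrays by matching each probe's RefSeq accession to a gene symbol. All 10 listed genes had a probe, 12 probes in all, out of 20659 genes and 27234 probes that could be named. Of the 10 genes, 9 were bright enough to test, against 14806 genes in the whole series. Slc7a11 was not.

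The study compared livers of male ICR mice, an outbred stock, after DECB or after saline. DECB is a deproteinized extract of calf blood, a filtrate of small molecules. Both groups, 12 mice each of 18 to 22 g, had 0.08 mL per 20 g of body weight placed in the stomach once a day for 35 days, although the sample descriptions give 30 days for DECB and 1 day for the controls. Arrays of 3 DECB samples (DECB 4, 5 and 6) and 3 control samples (controls 1, 2 and 3) were analysed, each hybridised with Cy3-labelled liver RNA. The mice were also timed for tolerance of hypoxia in closed containers, and the order of that test and liver collection is not stated. Ages are not given. Whether the arrays of a group came from separate mice is not stated, so the spread that enters each p-value may be technical.

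NRF2 is held at low level by KEAP1, which presents it to a cullin 3 ubiquitin ligase for degradation. Oxidants and electrophiles modify cysteines of KEAP1, NRF2 then accumulates, and with a small MAF protein it binds the antioxidant response element in the promoters and enhancers of its targets. The targets make and recycle glutathione, reduce thioredoxin, detoxify quinones and break down heme, and in liver they are known for their part in the defence against drugs and other reactive compounds. Because this control acts mainly on the protein, the mRNA of Nfe2l2 is not a measure of NRF2 activity.

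The antioxidant response element was searched for in RefSeq promoter windows (build GRCm38.p6, 250 bases before to 50 after a gene's start) as the core TGACNNNGC, on either strand. Of 9 windows that belong to 7 of the genes, 4 windows held the core, 1 each for Nfe2l2, Gclm, Txnrd1 and Srxn1, while 12.4% of all 32851 windows held it. The looser form TGANNNNGC, which contains the core, was in 7 of the 9 windows and in 41.3% of all windows. The 4 stretches are shown because they hold the letters of the element that NRF2 is known to bind. They are written in the direction of the gene with the core in capitals, and with up to 25 bases on either side.
Nfe2l2, chr2:75704870-75704913, minus strand: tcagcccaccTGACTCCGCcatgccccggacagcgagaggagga
Gclm, chr3:122245398-122245456, plus strand: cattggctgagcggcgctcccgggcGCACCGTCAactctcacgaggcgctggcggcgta
Txnrd1, chr10:82859089-82859147, plus strand: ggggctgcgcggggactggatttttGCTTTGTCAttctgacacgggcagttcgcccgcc
Srxn1, chr2:152105527-152105573, plus strand: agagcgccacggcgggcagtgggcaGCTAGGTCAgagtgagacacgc
In Nfe2l2 the core reads along the gene, and in Gclm, Txnrd1 and Srxn1 it lies on the opposite strand, so the capitals there are its reverse complement. Its first printed base lay 240 bases before the start in Nfe2l2, 134 before it in Gclm and 92 before it in Txnrd1, and 28 bases after it in Srxn1. Txnrd1 has 3 windows and the core was in the middle of these. A match is a description of the sequence and no measurement of binding, and no match in the windows of Keap1, Nqo1 and Slc7a11 says only that these letters are not there.

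The question put to the arrays was whether these genes differed in liver after DECB. None of the 9 tested genes passed the threshold (limma, Benjamini-Hochberg adjusted p under 0.05 over all genes), where 0.466% of all genes did. At an unadjusted p under 0.05 there was 1 gene of 9, Nqo1, against 10% of all genes. The differences ran in both directions: Hmox1, Gsr, Txnrd1, Srxn1 and Keap1 lay above 0 and Nfe2l2, Nqo1, Gclc and Gclm below it, from -1.08 to 0.81 on the log2 scale. Their median was 0.22, against -0.03 over all genes tested, and their median size without regard to sign was 0.47, against 0.31. All levels below are the log2 of the processed signal minus that array's 75th percentile. A level of 0 is the 75th percentile of the array. Levels of different genes are not set against each other, except among the cell markers. Those are summed, so brighter probes weigh more in the sums.

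Before the single genes, the arrays themselves differed in brightness by slide, with arrays that share 1 scan time taken as 1 slide. Slide 1 held DECB 6 and control 1, while DECB 4 and controls 2 and 3 shared slide 2, and DECB 5 was alone on slide 3. Relative to the local background, the 75th percentile of the signal was 4.04 and 3.75 times as bright on DECB 6 and control 1 and 25 to 30.6 times on the other 4 arrays. Across genes, controls 2 and 3 correlated at 0.992, closer than any other pair. The difference between slide 1 and the other arrays was larger in size than that between DECB and control for 7 of the 9 tested genes and for 70.9% of all genes. Of the 9, 8 were higher on slide 1 and Gclm was lower.

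**Figure D1:**
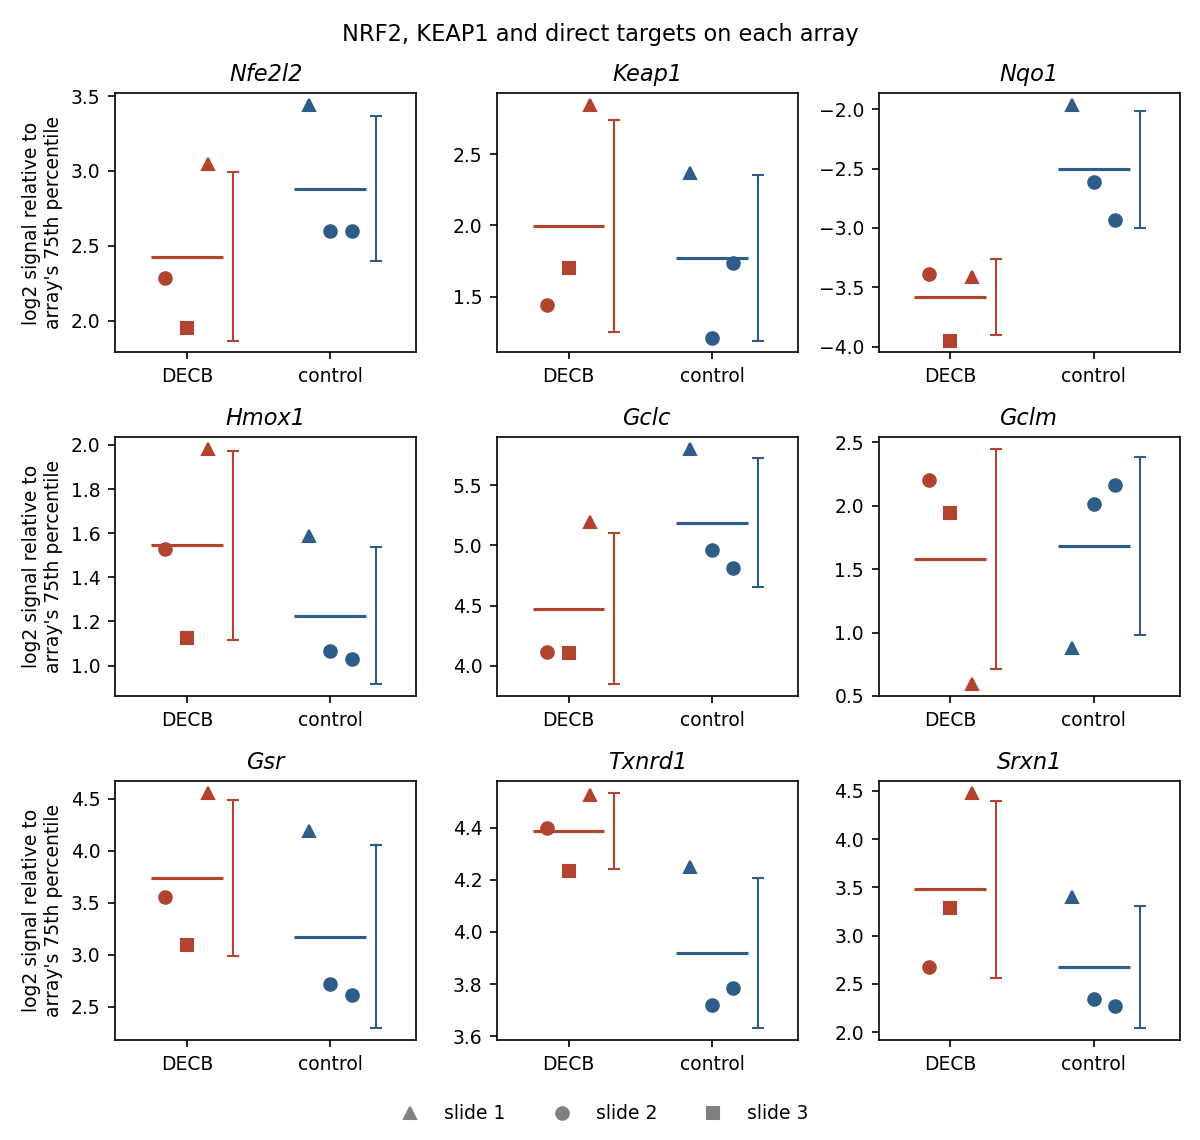
Log2 level, as signal over the 75th percentile of its array (vertical axis), for the 9 tested genes on each DECB and control array. Points are arrays with their slide as the symbol, horizontal lines are group means and bars to their right are the SD over 3 arrays. The slide 1 arrays (triangles) lie apart from the others of their group for most genes, and Nqo1 is the gene whose groups do not overlap.

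Nfe2l2, the NRF2 gene, had levels of 2.29, 1.95 and 3.05 on DECB 4, 5 and 6, against 3.44, 2.60 and 2.60 on controls 1, 2 and 3. The highest array of each group was its slide 1 array, and the groups overlapped because DECB 6 lay above controls 2 and 3. The mean was 2.43 ± 0.56 in DECB and 2.88 ± 0.49 in controls (SD, n = 3 each), a difference of -0.45 (SE 0.41, limma adjusted p = 0.871) with a 95% interval from -1.41 to 0.51. The difference was -0.39 within slide 1 and -0.32 within slide 2. Keap1, the inhibitor, had levels of 1.44, 1.70 and 2.84 on the DECB arrays, against 2.37, 1.21 and 1.74 on the control arrays. DECB 6 was the highest array and control 2 the lowest, and the groups overlapped. The difference in Keap1 was 0.22 (SE 0.48, limma adjusted p = 1) with a 95% interval from -0.91 to 1.35, and it was 0.47 within slide 1 and -0.03 within slide 2.

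Nqo1, a quinone reductase often used as a readout of NRF2, had the most negative difference of these genes over all 6 arrays, though not within slide 2 or with normexp, where Gclc was lower. Its levels were -3.38, -3.95 and -3.41 on DECB 4, 5 and 6, against -1.97, -2.62 and -2.94 on controls 1, 2 and 3. Every DECB array lay below every control array, which held for 16.6% of all genes in either direction and for 9.4% in the downward one. The difference was -1.08 (SE 0.35), with an unadjusted p of 0.0189 and a limma adjusted p of 0.35, and its 95% interval ran from -1.91 to -0.24 before any adjustment. The Nqo1 probe was dim: it was not well above background on DECB 6 or on control 1, the slide 1 arrays. The difference was -1.44 within slide 1 and -0.61 within slide 2, where all 3 arrays measured it. With normexp background correction, which shrinks differences of dim probes, it was -0.35. The Gclc difference was -0.77 within slide 2 and -0.70 with normexp.

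Hmox1 encodes heme oxygenase 1, which breaks down heme and is also made by macrophages. It had levels of 1.53, 1.13 and 1.98 on the DECB arrays, against 1.59, 1.06 and 1.03 on the control arrays. Control 1 lay above DECB 4 and 5, so the groups overlapped. The difference was 0.32 (SE 0.34, limma adjusted p = 0.918), with 0.39 within slide 1 and 0.48 within slide 2. A dimmer probe for Hmox1 gave -0.08, -0.15 and -0.82 on DECB 4, 5 and 6, against -0.97, -0.58 and -1.01 on controls 1, 2 and 3. Its difference was 0.50 (SE 0.32, limma adjusted p = 0.729 over all named probes, of which 0.381% passed), in the same direction as the brighter probe. Of the macrophage and Kupffer cell markers that were tested 5 of 7 lay below 0 over all arrays. Within slide 1 there were 5 below 0 (median -0.21) and within slide 2 there were 3 (median 0.04). Their part in the Hmox1 values was not tested.

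Glutathione is made by glutamate-cysteine ligase, the rate-limiting step, whose catalytic subunit is Gclc and whose modifier subunit is Gclm. Gclc had levels of 4.12, 4.11 and 5.20 on DECB 4, 5 and 6, against 5.80, 4.96 and 4.81 on controls 1, 2 and 3. DECB 4 and 5 lay below every control array and DECB 6 did not. The difference in Gclc was -0.72 (SE 0.43, limma adjusted p = 0.71), with -0.60 within slide 1 and -0.77 within slide 2. Gclm had levels of 2.21, 1.94 and 0.59 on the DECB arrays, against 0.88, 2.02 and 2.16 on the control arrays. Its slide 1 arrays were the lowest of both groups. The difference in Gclm was -0.10 (SE 0.54, limma adjusted p = 1), and it was -0.28 within slide 1 and 0.12 within slide 2. Slc7a11 encodes the cystine transporter that supplies cysteine for glutathione. Its probe was not well above background on any of the 6 arrays, so no difference is given.

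Gsr, glutathione reductase, returns oxidised glutathione to its reduced form. Its brighter probe had levels of 3.56, 3.09 and 4.56 on DECB 4, 5 and 6, against 4.19, 2.72 and 2.61 on controls 1, 2 and 3. Control 1 lay above DECB 4 and 5, and controls 2 and 3 lay below every DECB array. The difference was 0.57 (SE 0.56, limma adjusted p = 0.9), with 0.37 within slide 1 and 0.90 within slide 2. The other Gsr probe had levels of 3.04, 2.26 and 2.42 on the DECB arrays, against 2.03, 1.99 and 2.01 on the control arrays. On this probe every DECB array lay above every control array (7.24% of all genes did so at their brightest probe), and its difference was 0.56 (SE 0.30, limma adjusted p = 0.635 over all named probes). The probes thus gave nearly the same difference for Gsr, while their slide 1 arrays stood 1.38 above the others on the brighter probe and -0.10 from them on the other.

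Txnrd1, cytosolic thioredoxin reductase, had levels of 4.40, 4.24 and 4.53 on DECB 4, 5 and 6, against 4.25, 3.72 and 3.78 on controls 1, 2 and 3. The groups overlapped by 1 pair of arrays, DECB 5 lying just below control 1. The mean was 4.39 ± 0.15 in DECB and 3.92 ± 0.29 in controls (SD, n = 3 each), a difference of 0.47 (SE 0.28, limma adjusted p = 0.708) with a 95% interval from -0.20 to 1.14. The difference was 0.28 within slide 1 and 0.65 within slide 2. Srxn1, sulfiredoxin, repairs overoxidised peroxiredoxins. It had levels of 2.68, 3.28 and 4.48 on the DECB arrays, against 3.40, 2.35 and 2.27 on the control arrays. DECB 6 was the highest array, and control 1 lay above DECB 4 and 5. The difference in Srxn1 was 0.81 (SE 0.54, limma adjusted p = 0.766) with a 95% interval from -0.48 to 2.09, and it was 1.07 within slide 1 and 0.37 within slide 2.

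**Figure D2:**
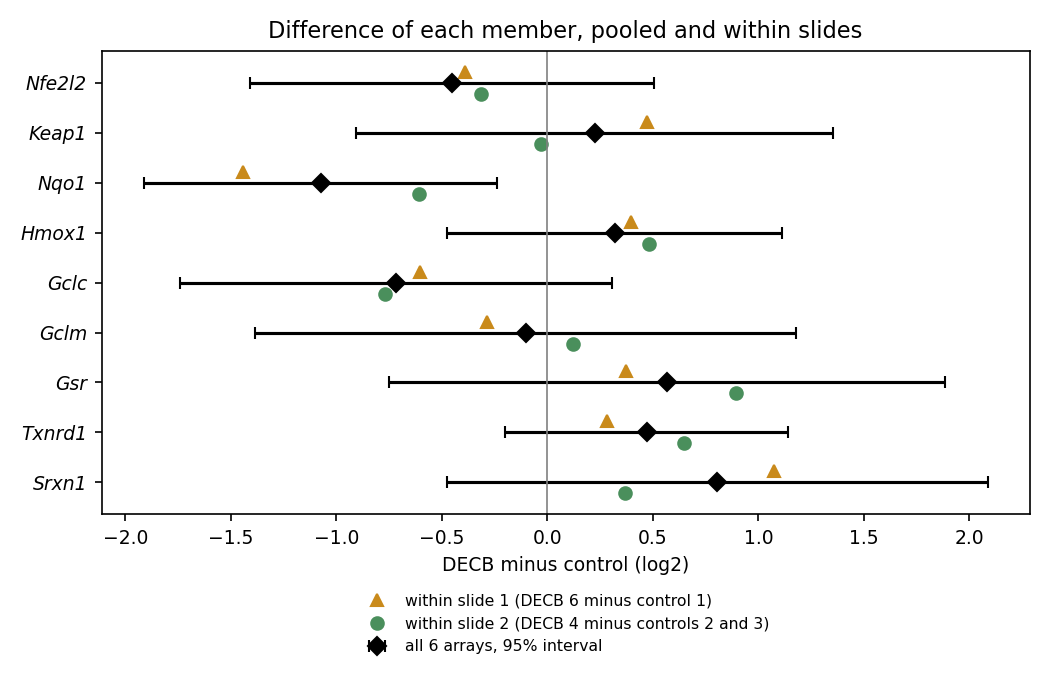
Difference between DECB and control (log2, horizontal axis) for the 9 tested genes. Diamonds are the limma estimate over all 6 arrays with its unadjusted 95% interval, triangles the difference within slide 1 and circles that within slide 2; Keap1 and Gclm change sign between the slides and Nqo1 is the gene whose interval leaves out 0.

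Of the 9 genes, 7 had the same sign on slides 1 and 2, as did 65.2% of all genes. The other two, Keap1 and Gclm, had the smallest differences. With slide as a block none of the 9 passed after adjustment (limma, smallest adjusted p = 0.0701, for Gclc), while 6.67% of all genes did. In that fit 6 of the 9 had an unadjusted p under 0.05, against 28.8% of all genes: Hmox1, Gsr, Txnrd1 and Srxn1 above 0, and Nqo1 and Gclc below it. The blocked differences of these 6 were 0.44, 0.67, 0.49, 0.67, -0.97 and -0.70, in the order named. DECB 5, alone on its slide, adds nothing to the blocked contrast, which leaves 2 residual degrees of freedom. Without the slide 1 arrays the 2 DECB arrays and the 2 control arrays did not overlap for 7 of the 9 genes, a property of 57.5% of all genes.

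The other genes of the pathway were taken from 2 lists. The first holds 60 further genes given as NRF2 targets or as parts of glutathione metabolism, of which 58 were tested. None passed (limma, smallest adjusted p = 0.083), and 9 had an unadjusted p under 0.05 (15.5%, against 10% of all genes). Of the 58 genes 44 lay below 0 (75.9%, against 52.5% of all genes tested), with a median of -0.33 against -0.03 over all genes, and -0.33 with Abcc4 at the bound given below. Abcc4 is among these 44 and these 9, and it met the filter on dim probes through its control arrays alone. The median was -0.35 within slide 1 and -0.24 within slide 2. Markers of hepatocytes, which express most of these genes, lay below 0 for 8 of 8 tested, with a median of -0.30 over all arrays. Within slide 1 the hepatocyte markers had a median of -0.12 with 6 of 8 below 0, and within slide 2 a median of -0.12 with 4 of 8 below 0. Their part in the list's values was not tested. In RNA of whole liver, fewer cells of a type and less RNA per cell cannot be told apart.

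By role, grouped after the values were seen, 10 of 11 glutathione transferases lay below 0, from -1.78 for Gstm3 to 0.52 for Gstp1. Of all genes tested 52.5% lay below 0. The median of the transferases was -0.22 over all arrays, -0.20 within slide 1 and -0.07 within slide 2. Within slide 2 Gstm3 was at -0.21, and Gsta2, Gstm4, Mgst1, Mgst2 and Gstp1 lay above 0. Of the 6 enzymes that supply NADPH directly or through the pentose phosphate pathway, 5 lay below 0, and Pgd, 6-phosphogluconate dehydrogenase, lay above it at 0.98. Of the 3 exporters of conjugated compounds, Abcc2 and Abcc3 lay below 0 with no overlap between groups, as did 9.4% of all genes. The third, Abcc4, also lay below 0 but was not well above background on any DECB array. It met the filter on dim probes through its control arrays alone, which favours a lower level in DECB, so its direction is not counted. None of the 3 passed over all 6 arrays without a block. The 5 genes of iron storage, heme transport and bilirubin formation had a median of -0.16 and ran from -0.59 to 0.14. The 4 further genes of glutathione synthesis and turnover split evenly, with Gss, glutathione synthetase, at 0.73.

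The 4 genes of this list with the smallest p were Chac1, Ces1g, Abcc4 and Abcc2. Chac1, which degrades glutathione and is also known as a target of ATF4, had levels of -0.50, -0.74 and -0.28 on DECB 4, 5 and 6, against 2.28, 1.42 and 1.08 on controls 1, 2 and 3. The groups were well apart, and the difference was -2.10 (SE 0.38, limma adjusted p = 0.083). Chac1 passed with the percentile taken over probes well above background on all arrays (limma adjusted p = 0.0499) and with a strict filter that kept probes well above background on all 6 arrays (0.0495). It did not pass with normexp (limma adjusted p = 0.251), quantile normalization (0.0876), without slide 1 (0.0546) or with controls 2 and 3 averaged (0.298). Nor did Chac1 pass with any 1 array left out (limma adjusted p of 0.0914 or more). Ces1g, a carboxylesterase, differed by -1.53 (SE 0.31, limma adjusted p = 0.102). Abcc4, an exporter of the basolateral membrane, was well above background on all 3 control arrays and on none of the DECB arrays, with mean levels of -4.69 in DECB and -2.09 in controls. The test on these measured levels gave a limma adjusted p of 0.131. With the scaling by percentile over all 6 arrays, Abcc4 was at least 3.16-fold lower in DECB. That bound takes, per DECB array, the higher of its own signal and that of the dimmest probe still well above background. It does not hold in other settings: the measured difference was -0.82 with normexp (limma adjusted p = 0.987) and -1.52 within slide 2, both smaller than the bound. Abcc2, the exporter of the bile canaliculus, had levels of 0.93, 1.11 and 1.39 on the DECB arrays, against 2.51, 2.23 and 1.99 on the control arrays. Its groups did not overlap, and its difference was -1.10 (SE 0.29, limma adjusted p = 0.206). With slide as a block these 4 genes passed, lower in DECB (limma adjusted p = 0.0286, 0.0376, 0.0497 and 0.033, in the order named). No other gene of the list did, so 6.9% of the list passed, against 6.67% of all genes. Abcc4 met the filter on dim probes through its control arrays alone. That filter favours a lower level in DECB, so nothing is drawn from its pass.

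The second list holds 20 regulators and partners of NRF2, of which 17 were tested and none passed (limma, smallest adjusted p = 0.0856). Their median was 0.08, with 10 above 0 and 7 below, and 2 had an unadjusted p under 0.05 (11.8%, against 10% of all genes). Syvn1 encodes HRD1, a ubiquitin ligase of endoplasmic reticulum-associated degradation that can also act on NRF2. It had levels of 6.11, 6.10 and 7.23 on DECB 4, 5 and 6, against 4.65, 3.55 and 3.31 on controls 1, 2 and 3. Every DECB array was above every control array, and the difference was 2.64 (SE 0.49, limma adjusted p = 0.0856). Syvn1 passed with slide as a block (limma adjusted p = 0.0172), with normexp (0.0264), with the percentile over probes well above background on all arrays (0.048) and without slide 1 (0.0454). It did not pass with any 1 array left out (limma adjusted p of 0.0837 or more). Maff, a small MAF protein, had levels of -0.29, -1.16 and -0.64 on the DECB arrays, against 1.59, 0.92 and 0.70 on the control arrays. All DECB arrays lay below all control arrays, and the difference was -1.76 (SE 0.37, limma adjusted p = 0.116). Mafg, another small MAF, differed by -0.67 (SE 0.40, limma adjusted p = 0.694), and Gsk3b, a kinase that marks NRF2 for degradation apart from KEAP1, by 0.67 (SE 0.61, limma adjusted p = 0.874). Cul3 and Rbx1, of the ligase that KEAP1 recruits, differed by -0.31 and 0.26, and Bach1, a repressor at the same element, by -0.06.

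**Figure D3:**
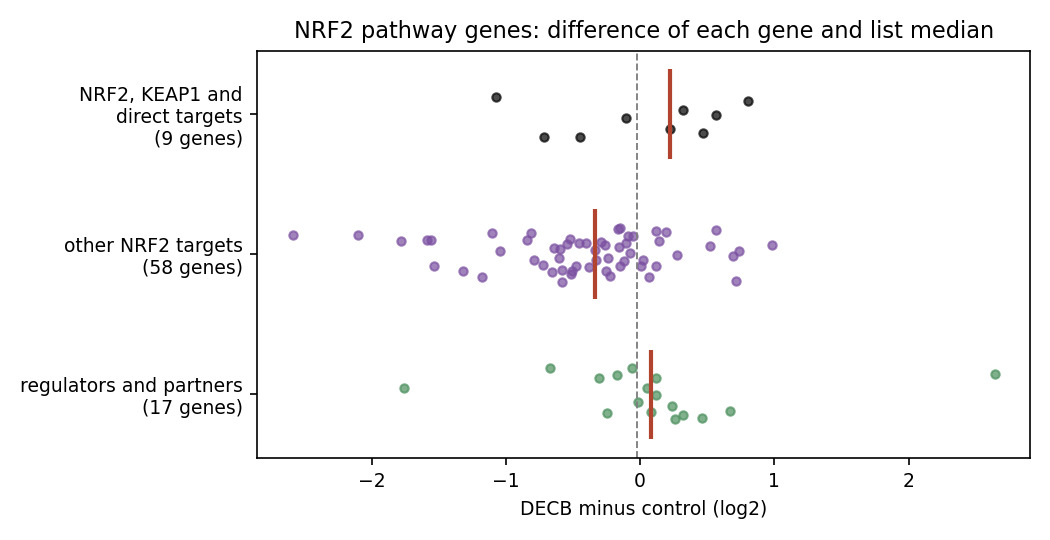
Difference between DECB and control (log2, horizontal axis) for each tested gene. The genes are NRF2, KEAP1 and its direct targets (9 genes), the list of further targets and glutathione genes (58), and regulators and partners (17). Points are genes (Abcc4 at its measured difference) with vertical scatter for legibility, solid lines are the list medians (0.22, -0.33 and 0.08) and the dashed line is the median of all genes tested (-0.03).

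The profile nearest to that of Nfe2l2 over the 6 arrays belonged to Kdm4a, followed by Rnf14 and Stard7. The root mean square distance of their mean-centred log2 levels was 0.037, 0.054 and 0.057, against a median of 0.443 over 9045 genes well above background on every array. For Nqo1, the gene with the smallest p, the nearest were Hsdl2, Mia2 and Cyp2a4, at distances of 0.091, 0.118 and 0.119 against a median of 0.665. Cyp2a4 is also on the list of further targets and glutathione genes, and its difference was -1.04 (limma adjusted p = 0.295). These distances describe 6 arrays whose levels also share a slide pattern.

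Markers of the cells a liver sample can hold were set beside these values, with their levels summed per array in multiples of its 75th percentile. None of the markers tested passed over all 6 arrays without a block (limma adjusted p under 0.05). With slide as a block 3 of the 41 tested did, where 6.67% of all genes passed. The neutrophil genes S100a8 and S100a9 were higher in DECB by 1.56 and 1.65 (limma adjusted p = 0.0309 and 0.0215). The third, the endothelial gene Stab2, differed by -1.05 (limma adjusted p = 0.0463). The other endothelial markers did not share its direction in that fit: Lyve1, Pecam1 and Fcgr2b were at 0.21, 0.16 and 0.50, and Clec4g and Kdr at -0.13 and -0.22. Of the 6 endothelial markers 4 lay below 0 within slide 1 (median -0.14) and 3 within slide 2 (median 0.035). Hepatocyte markers summed to 1680 to 2070 on DECB arrays and 2010 to 2360 on control arrays, and all 8 were well above background on every array. Kupffer cell and macrophage markers summed to 20.1 to 22.9 on DECB arrays and 20.4 to 27.3 on control arrays. Endothelial markers summed to 14.8 to 31.3 and 20.5 to 38.5, and stellate cell markers to 14 to 35.6 and 24.1 to 50.5, on DECB and control arrays. Cholangiocyte markers summed to 2.37 to 32.1 on DECB arrays and 1.21 to 7.44 on control arrays, with Krt7 never above background. The highest sum came mostly from Cftr, at a level of 4.955 on DECB 5, which was alone on its slide. The Cftr difference was 1.47 within slide 1 and 0.05 within slide 2. Neutrophil markers, 3 of 3 tested above 0 over all arrays (6 were listed), summed to 3.76 to 8.63 on DECB arrays and 1.58 to 6.97 on control arrays. The highest sum of each group came mostly from Elane, at a level of 2.778 on DECB 5 and 2.654 on control 2. Elane differed by 0.33 over all arrays and by -0.19 within slide 2, and its slide 1 arrays stood -2.71 from the others. Lymphocyte markers, 4 genes, summed to 0.558 to 0.689 on DECB arrays and 0.43 to 0.749 on control arrays, with Cd3g never above background. Erythroid markers, 3 genes, summed to 10.8 to 21.8 on DECB arrays and 23.5 to 35.9 on control arrays. The 3 did not share a direction: Hba-a1, the brightest, differed by -1.725, Slc4a1 by -0.13 and Alas2 by 0.88. What part these cells have in the values of the NRF2 genes was not tested.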

How the data were processed

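Each array file holds 1 Agilent 1-colour array as read by Agilent Feature Extraction, version 11.0.1.1 per the file headers and the submitters' processing notes. The intensity used, the processed Cy3 signal, was background-subtracted and detrended by the authors' software per the file headers, with no scaling between arrays. The normexp alternative used the deposited median spot and background intensity, because the files carry no mean spot signal. The deposited series table holds values on a log2 scale. No label or header says which steps made it, so scale, centring and direction stay unknown. Its 6 columns share a median of 5.34 and correlated with their own arrays at 0.742 to 0.775, below the 0.874 to 0.988 between arrays, so it entered no comparison.

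From the log2 processed signal the 75th percentile of the same array, taken over 43020 non-control spots, was subtracted. Spots marked as outliers (164 to 322 an array) were left out, and no spot was saturated. A probe was kept if at least 3 of the 6 arrays had it well above background, and each gene was represented by its brightest kept probe. Symbols came from a RefSeq table of GRCm38.p6 (27234 matched, of 28684 probes that carry a RefSeq accession), and since the array design names mm9, no gene coordinates are given beyond the promoter table's own. Tests used limma 3.58.1 in R 4.3.3 (lmFit, eBayes, two-sided, Benjamini-Hochberg over 14806 genes). With 3 arrays a group an exact permutation test cannot go below p = 0.1, and the number of arrays limits the precision. Probe fits covered 18657 named probes. Groups came from the titles. All listed genes are named, and of the further lists the 4 genes with the smallest p, any that passed, and role examples chosen after their values were seen. Genes, lists and alternatives were chosen with earlier results of these data known. Alternatives were another background correction, normalization, percentile, filter, probe rule and variance model, slide as a block, within slides, without slide 1, controls 2 and 3 averaged, and each array left out.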

Additional observations from a re-analysis of the deposited data

How the results depend on the processing

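None of the 9 tested genes of the NRF2 group passed in any alternative with a test (limma), and 153 of 161 differences kept their direction. The 8 that did not were all of Keap1 or Gclm. Within slide 2 Keap1 was at -0.03 and Gclm at 0.119, and Gclm was at 0.099 with controls 2 and 3 averaged. With 1 array left out Keap1 ran from -0.20 (without DECB 6) to 0.523 and was -0.058 without control 2. Gclm ran from -0.507 to 0.392 (without DECB 6) and was 0.063 and 0.135 without controls 2 and 3. The cause was not tested.

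The 31 higher and 38 lower genes of the whole table became 16 and 23 with quantile normalization, 72 and 63 with the percentile taken over probes well above background on all arrays, and 405 and 583 with slide as a block. They became 0 and 0 without a filter on dim probes (limma, 1257 genes at an unadjusted p under 0.05) and 0 and 2 with controls 2 and 3 averaged (883 genes). With 1 array left out they ran from 0 to 18 and from 0 to 35, with 0 calls in each fit that lacked control 1, control 3, DECB 4 or DECB 5 (unadjusted p under 0.05 in 1344, 916, 1221 and 1159 genes). The count of NRF2 group genes whose arrays did not overlap, 1 with all arrays, was 3 with normexp (13.9% of all genes), 2 with quantile normalization (16.9%), 2 with the other percentile (19.2%), 2 with the mean of all probes (17.3%), 0 of 8 with the strict filter (17.9%), which dropped Nqo1, and 7 without slide 1 (57.5%). With 1 array left out it ran from 1 to 5, the 5 being without control 1 (32.5% of all genes) and 3 without DECB 6 (41.2%). Single arrays moved several differences by over 1.5 times. Without control 1 and without DECB 6 the difference was 1.07 and 0.16 for Gsr, 1.17 and 0.31 for Srxn1, 0.50 and 0.10 for Hmox1, -0.17 and -0.76 for Nfe2l2, -0.41 and -1.08 for Gclc, and 1.16 and 0.13 for Gsk3b. Hmox1 was 0.53 and Nfe2l2 -0.21 without DECB 5, and Mafg was -0.42 without control 1. The median of the NRF2 group ran from 0.06 (without control 2) to 0.50 (without control 1). No paired analysis was possible because the sample titles number DECB and control arrays separately. The Nqo1 probe was not well above background on the slide 1 arrays, nor was that of Slc7a11 on any array.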

Other observations

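Of the 58 genes tested of the list of further targets and glutathione genes, 11 had every DECB array below every control array (19% of the list, against 9.4% of all genes). Another 3 had every DECB array above (against 7.24% of all genes). The genes were chosen for this after their values were seen. Abcc4, among the 11, met the filter on dim probes through its control arrays alone. That filter favours a lower level in DECB, so nothing is drawn from its place there, and the 19% counts it. The 11 were Gsta3, Prdx6, Abcc2, Abcc3, Abcc4, Aldh3a2, Ces1g, Ces2g, Cyp2a4, Vldlr and Chac1, and apart from Abcc4, not well above background on the DECB arrays, their differences ran from -2.10 for Chac1 to -0.52 for Aldh3a2. Abcc3, an exporter of conjugates into blood, had levels of 4.25, 3.19 and 4.17 on DECB 4, 5 and 6, against 5.60, 4.90 and 4.64 on controls 1, 2 and 3 (difference -1.18, limma adjusted p = 0.391). The 3 were Osgin1, Pgd and Gss, at 0.57, 0.98 and 0.73 (limma adjusted p = 0.636, 0.487 and 0.487). Gss, which completes glutathione synthesis, had levels of 1.36, 1.93 and 2.05 on the DECB arrays, against 1.25, 1.00 and 0.88 on the control arrays, while Gclc, which begins it, lay in the other direction. The difference between Gss and Gclc was not tested.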
